A study of Mus musculus with 2 samples.

Results

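Overlapping convergent gene pairs are neighbouring genes that are read towards each other and whose 3′ ends share bases. They were taken as pairs of protein-coding genes on opposite strands of chromosomes 1 to 19 (GENCODE release M21, the mm10 assembly) whose annotated 3′ ends overlap by at least 1 bp, with neither gene nested in the other. The rule found 873 pairs, formed by 1733 of 20780 protein-coding genes, of which 13 genes belonged to 2 pairs. The data are H3K36me3 ChIP-seq peak lists of unstimulated macrophages grown from the bone marrow of C57BL/6J mice. There was 1 group of 2 biological replicates, each from 10 ng of DNA, with no genetic change and no treatment given in the labels. Both replicates carry a single donor record in the labels, and how far they differ may thus be technical. With a single group no test was possible, and every value below is a description given for each replicate.

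H3K36me3 is a histone mark laid down along transcribed gene bodies, mainly by Setd2, a methyltransferase that travels with elongating RNA polymerase II. It usually fills the later part of a gene and ends near the site where the transcript is cut and polyadenylated. A histone mark has no strand, so a peak in bases shared by a pair cannot be assigned to either gene. For that reason a gene was classed by its own part, meaning the bases of its body that lie in no other coding gene body.

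Each overlap is bounded by the annotated ends of both genes, so a few gene ends show what the bases there look like. The last 30 bases of 8 genes follow, 5′ to 3′ on the strand of each gene, from the NCBI RefSeq sequence of GRCm38.p6 (mm10). Capitals mark AATAAA or ATTAAA, the common letters of a poly(A) signal. The first pair was shown because both genes carried the mark, the second because its whole overlap fits in the window, the third because its shared bases held no peak beside a marked gene, and the fourth because its overlap was covered in part in replicate 2.
Usp16: acacatcAATAAActgatattcccaaaact
Cct8: aAATAAAcatgattttttttctgtcattta
Vdac2: tacAATAAAatacaaggatacatactttaa
Comtd1: gagtATTAAAgtatgtatccttgtatttta
Ddx17: tgtaggtataAATAAAtacttgacAATAAA
Kdelr3: ttttaatgtAATAAAaaattcacaccttta
Psmc3: gcaaccacaaAATAAAaacttctgagactt
Slc39a13: tgtagatataAATAAAttacttagaccggc
The window of Usp16 was chr16:87483488-87483517 on the plus strand and that of Cct8 was chr16:87483326-87483355 on the minus strand. The window of Vdac2 was chr14:21845850-21845879 on the plus strand and that of Comtd1 was chr14:21845855-21845884 on the minus strand. The window of Ddx17 was chr15:79527736-79527765 on the minus strand and that of Kdelr3 was chr15:79527710-79527739 on the plus strand. The window of Psmc3 was chr2:91066340-91066369 on the plus strand and that of Slc39a13 was chr2:91061791-91061820 on the minus strand. Vdac2 and Comtd1 share 25 bases, which read taaaatacaaggatacatactttaa on the plus strand (chr14:21845855-21845879), and the shared bases include all but the first letters of both printed signals.

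Over all pair genes, AATAAA stood within the last 40 bases, on the strand of the gene, in 53.1% of 1733 pair genes and in 56.9% of 20780 coding genes. AATAAA or ATTAAA stood there in 66.2% of pair genes and in 69.6% of coding genes. In 377 pairs both ends held such letters and in 94 pairs neither end did. A match is a description of these letters and not a mapped cleavage site.

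The median overlap was 1186 bp, with quartiles of 204 and 4034 bp and a range of 1 to 163328 bp. Overlaps of at most 500 bp made up 298 of the 873 pairs, and 102 were longer than 10 kb. In 350 pairs every shared base was exonic in both genes, and these overlaps were short (median 121.5 bp, against 3032 bp in the other pairs). In 55 pairs no base was exonic in both genes. Only 720 pairs were found when the gene model was restricted to basic protein-coding transcripts without read-through, and 169 of the 873 pairs were not among them. A coding gene outside the pair also lay over one of the bodies in 245 pairs.

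Replicate 1 had 32016 peaks over 28.5 Mb of chromosomes 1 to 19 and replicate 2 had 58233 peaks over 79.1 Mb. The files hold no read counts, so the depth is unknown, and a gene without a peak was not detected in that list rather than shown to lack the mark. Of 8 macrophage marker genes, 6 held a peak in replicate 1 and 8 in replicate 2, while none of 4 T cell, 4 B cell, 4 neutrophil and 4 hepatocyte markers did in either.

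H3K36me3 was found on members of these pairs more often than on coding genes at large, while the genes that had it were covered to a like extent. The call of a marked gene required 20% of its own part under peaks in both replicates and could be made for 1677 pair genes, whose own part had at least 500 bp. Of these, 206 (12.3%) were marked, against 8.10% of 19536 coding genes and 7.71% of the 17859 coding genes in no pair. By replicate 2 alone 39.5% of pair genes were marked, against 24.4% of all coding genes. Convergent neighbours separated by at most 5 kb were also above all coding genes, with 10.8% of their genes marked and 33.2% by replicate 2 alone. Neighbours on the same strand separated by at most 5 kb had 11.8% and 32.7%, so a raised share was not particular to overlapping pairs. A peak in the own part was present in 44.7% of pair genes in replicate 1 and in 63.4% in replicate 2, against 29.7% and 39.2% of all coding genes. Among genes with a peak, the median covered percent of the own part was 10.9% in replicate 1 and 27.6% in replicate 2 for pair genes, against 11.2% and 28.0% for all coding genes. Pair genes had a median length of 20.8 kb, against 18.7 kb, and the part of length in these shares was not tested. At the border of the call, Nkiras2 was just outside with 19.9% of its own part covered in replicate 1 and 31.2% in replicate 2.

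Most often, 1 gene of a pair or neither was marked. Of 829 pairs in which both genes had an own part long enough, both genes were marked in 13, 1 gene in 179 and neither in 637. The other 44 pairs were not classed. By replicate 2 alone the counts were 153, 350 and 326. The partner of a marked gene was itself marked in 12.7% of cases, close to the 12.4% of all genes in these pairs. By replicate 2 alone the share was 46.6%, against 39.6% of all genes in the pairs. Convergent neighbours separated by at most 5 kb gave 9.71%, against 10.8% of their genes, and by replicate 2 alone 37.9%, against 33.2%. Neighbours on the same strand separated by at most 5 kb gave 14.2%, against 11.8% of their genes, and by replicate 2 alone 41.6%, against 32.7%. Across the 829 pairs the Spearman correlation between the own parts of the plus-strand and the minus-strand gene was 0.189 in replicate 1 and 0.201 in replicate 2. Both genes of a pair share a library and a neighbourhood, and many values are at 0.

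The shared bases followed the class of the pair, which was made without them. In replicate 1 the median covered percent of the overlap was 53.7% where both genes were marked, 18.9% where 1 was and 0% where neither was. In replicate 2 it was 93.5%, 80.6% and 1.61%. Overlaps without any peak numbered 3 of 13, 74 of 179 and 472 of 637 in replicate 1, in the same order of classes, and 1 of 13, 33 of 179 and 313 of 637 in replicate 2. The classes overlapped widely, since overlaps at 0% were present in all 3 classes in both replicates and overlaps at 100% likewise. The order of the means was the same when the class came from 1 replicate and the overlap from the other. Classed by replicate 2 alone, the mean covered percent of the overlap in replicate 1 was 32.0% for 153 pairs with both genes marked, 18.5% for 350 with 1 marked and 4.37% for 326 with neither. Classed by replicate 1 alone, the mean in replicate 2 was 80.5% for 13 pairs, 61.9% for 180 and 31.8% for 636. The medians did not keep the full order. Classed by replicate 2 they were 12.3%, 0% and 0% in replicate 1, so pairs with 1 gene marked and with neither tied. Classed by replicate 1 they were 93.5%, 79.7% and 1.89% in replicate 2.

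**Figure D1:**
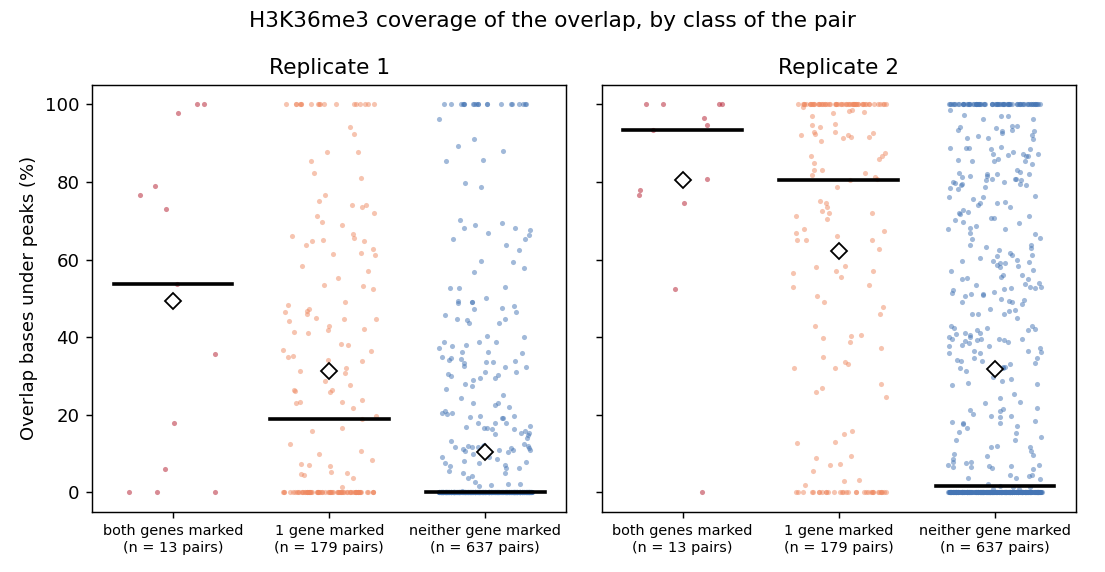
Percent of the overlap under H3K36me3 peaks (y axis) for pairs with both genes, 1 gene or neither gene marked (x axis), in each replicate. Each point is a pair, the bar is the median and the diamond the mean. Points at 0% and at 100% occur in every class, and the medians of replicate 2 are 93.5%, 80.6% and 1.61%.

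Over all 873 pairs, 295 overlaps held a peak in replicate 1 and 507 in replicate 2, with 288 in both, 7 in replicate 1 only and 219 in replicate 2 only. The whole overlap lay under peaks in 41 pairs in replicate 1 and in 142 in replicate 2, and in each of these a single peak ran across it into both genes. Such a peak was present in both replicates in 32 pairs. Full coverage was seen mainly in short overlaps, in replicate 2 in 40.1% of 157 overlaps of at most 100 bp and in none of 102 overlaps over 10 kb. Any peak, by contrast, was commoner in long overlaps, with 71 of the 157 shortest and 68 of the 102 longest holding one in replicate 2. A longer window has more room for a peak and is harder to fill, so the length alone favours both directions. Overlap coverage was higher in replicate 2 in 448 pairs and in replicate 1 in 34, and was equal in 391, of which 359 were at 0%.

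**Figure D2:**
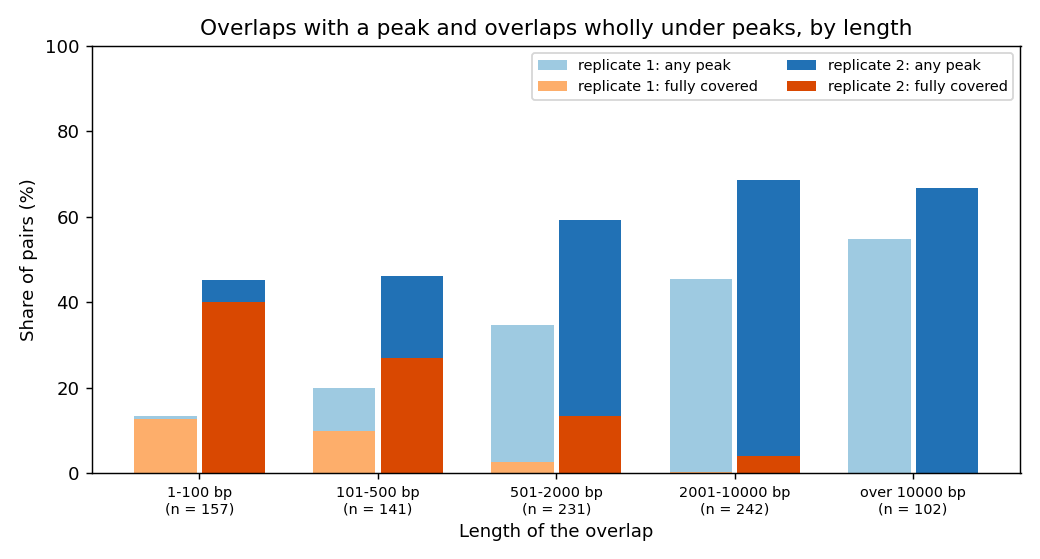
Share of pairs (y axis, percent) whose overlap held any peak (blue) and whose overlap lay wholly under peaks (orange, drawn over the blue bar), by length of the overlap (x axis) and replicate. Full coverage falls with length and is at 0 over 10000 bp, while any peak is commoner in long overlaps.

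Of the 13 pairs with both genes marked, the first 8 by the less covered gene are described here. In Usp16, a histone H2A deubiquitinase, 23.7% of the own part was covered in replicate 1 and 61.3% in replicate 2, and in Cct8, a chaperonin subunit, 44.7% and 79.8%. Their 192 shared bases (chr16:87483326-87483517), exonic in both genes and bounded by the ends printed above, were wholly covered in both replicates. Each replicate had 1 peak running through from one gene into the other. Phrf1, a ring-finger protein, met Irf7, a transcription factor of the interferon response, in the same way. The own part of Irf7 was covered to 45.6% in replicate 1 and 47.5% in replicate 2 and that of Phrf1 to 25.7% and 68.7%, and their 45 shared bases (chr7:141262706-141262750) were wholly covered in both replicates. The pair of Phrf1 and Irf7 was not found with the basic transcripts.

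Other overlaps in this class were longer, and those named next were covered in part. Naa25, a subunit of an N-terminal acetyltransferase, and Erp29, a protein of the endoplasmic reticulum, share 15789 bp (chr5:121428590-121444378), of which 73.1% was covered in replicate 1 and 80.6% in replicate 2. Pcif1, which methylates the adenosine next to the mRNA cap, and the zinc finger gene Zfp335 share 2573 bp, covered to 35.6% and 96.5%. Ctsa, the lysosomal protective protein, and Pltp, a phospholipid transfer protein, share 1515 bp, covered to 17.9% and 74.5%. Npc1, the lysosomal cholesterol transporter, and Rmc1 share 967 bp, covered to 53.7% and 78.0%. A coding gene outside the pair also lay over a body in the pairs of Naa25 and of Ctsa.

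Other pairs had both genes marked and an overlap that was bare in 1 replicate or in both. Fibp and Ctsw, a cathepsin, share 9 bp, which lay outside peaks in replicate 1 and under a peak in replicate 2. Heatr1, of ribosome biogenesis, and Lgals8, a galectin, share 875 bp, covered to 0% in replicate 1 and 93.5% in replicate 2. Neither the pair of Fibp and Ctsw nor that of Heatr1 and Lgals8 was found with the basic transcripts. Cers2, a ceramide synthase, and Setdb1, a methyltransferase of histone H3, share 75 bp that held no peak in either replicate, although the 5 kb past Cers2 was covered to 15.8% and 51.6% and the 5 kb past Setdb1 to 56.7% and 79.1%. The last pair was outside the rule for named pairs and was picked as the only one of the 13 with no peak in the overlap in either replicate.

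The pairs with 1 marked gene showed the sharpest contrasts, and a contrast between own parts is part of how they were chosen. Across the 179 pairs the own part of the marked gene was covered to a median of 29.2% in replicate 1 and 59.0% in replicate 2, and that of the partner to 0% and 10.0%. In replicate 2 the partner reached 20% in 71 of the 179 pairs, so many partners were unmarked through replicate 1. In 42 pairs the own part of the partner had no peak in either replicate.

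Several patterns at the shared bases were seen among the pairs with the largest contrast. In the first, no peak was detected in the overlap or in the own part of the partner in either replicate. Ddx17, an RNA helicase, was covered over 52.9% of its own part in replicate 1 and 75.3% in replicate 2, and Kdelr3, a receptor that returns proteins to the endoplasmic reticulum, over 0% in both. Their 4 shared bases held no peak. Xab2, of splicing and DNA repair, was at 53.4% and 78.4%, its partner Camsap3, a microtubule-binding protein, at 0% in both, and their 655 shared bases held no peak. Actr8, a subunit of the INO80 chromatin remodeller, was at 52.8% and 84.2%, its partner Il17rb, a receptor subunit for interleukin-25, at 0% in both, and their 10220 shared bases (chr14:29996135-30006354) held none.

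In the second, the overlap was wholly covered in replicate 2 and the own part of the partner was covered far less than that of the marked gene. Sqstm1, the autophagy receptor p62, was at 41.9% and 77.8%, and Mrnip, of DNA repair, at 0% and 1.19%. Of their 750 shared bases (chr11:50199366-50200115) 71.2% was covered in replicate 1 and 100% in replicate 2. Cybc1, a chaperone of the phagocyte NADPH oxidase, was at 50.1% and 74.2% and Hexdc at 0% and 5.86%, with their 68 shared bases at 0% and 100%. Vdac2, a channel of the outer mitochondrial membrane, was at 22.5% and 51.5% and Comtd1 at 0.581% and 21.6%, and the 25 bases printed above lay under a peak in both replicates. Vdac2 was chosen for its sequence and not by the rule for named pairs.

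In the third, the overlap was covered in part in replicate 2 and held no peak in replicate 1. Psmc3, a proteasome ATPase, was at 46.2% and 72.2% and the zinc transporter Slc39a13 at 0% in both, and their 4579 shared bases were at 0% and 52.9%. Pip4p1, a phosphoinositide phosphatase, was at 58.7% and 70.3% and Apex1, the main endonuclease for abasic sites in DNA, at 0% in both, with 1072 shared bases at 0% and 70.4%. Khnyn, a cofactor of an antiviral RNA-binding protein, was at 39.4% and 78.3% and Sdr39u1 at 0% in both, with 1493 shared bases at 0% and 25.8%.

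**Figure D3:**
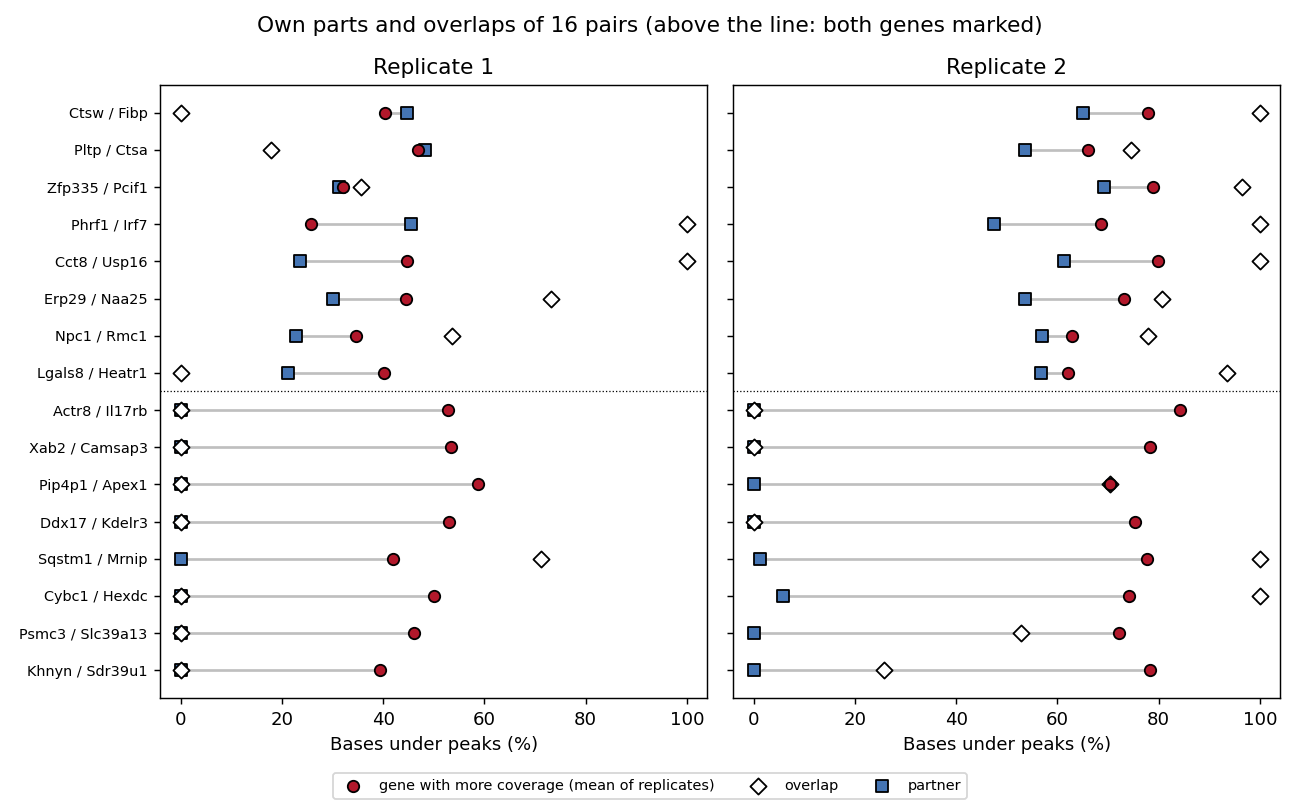
Percent of bases under peaks (x axis) in the own part of the gene with more coverage by the mean of the replicates (red circle), in the overlap (open diamond) and in the own part of the partner (blue square), for 16 pairs in each replicate. In the lower 8 pairs the partner is between 0% and 5.86%, while the overlap lies anywhere from 0% to 100%.

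Read from the marked gene towards its partner, the mean over the 179 pairs declined from the bases before the overlap, through its bins, to those beyond it. A higher start than end is part of how this class was made. In replicate 2 the mean covered percent over pairs was 74.1% in the last 500 bp before the overlap, 69.0% in the first of 5 equal bins of the overlap, 62.3% in the middle bin and 54.9% in the last bin. It was then 50.6% in the first 500 bp of the partner beyond the overlap and 19.5% at 4.5 to 5 kb beyond it. In replicate 1 the same places had 39.7%, 38.02%, 33.4%, 22.2%, 17.6% and 1.89%. Summed over bases, where long overlaps weigh more, the first, middle and last bins of the overlap were at 68.8%, 49.2% and 42.2% in replicate 2 and 34.1%, 25.2% and 19.7% in replicate 1. The sums did not fall at every step, since the first 500 bp of the partner was at 50.6% in replicate 2. The last bins rest on 141 pairs, since short partners do not reach that far. Each place averages a different set of peaks, so the slope is that of the mean and not of any single pair. In the 13 pairs with both genes marked the mean of the middle bin was 53.5% in replicate 1 and 76.9% in replicate 2, and that of the adjoining 500 bp was 66.0% and 84.5%. Pair by pair, the whole overlap was more covered than the 5 kb flank of the more covered gene in 7 of the 13 in replicate 1 and in 9 in replicate 2. With 1 gene marked, the overlap was more covered than the flank of the marked gene in 66 of 178 pairs in replicate 1 and in 85 in replicate 2. It was less covered in 107 and 88.

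**Figure D4:**
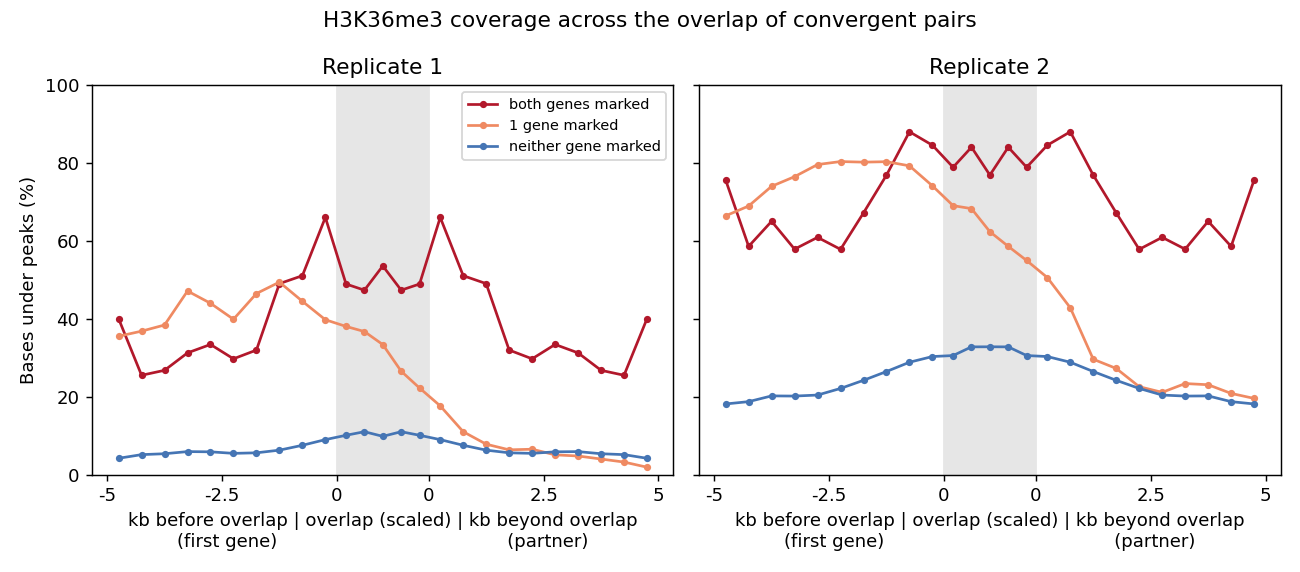
Percent of bases under peaks as the mean over pairs (y axis) in 500 bp bins up to 5 kb before the overlap, in 5 equal bins of the overlap (grey) and in 500 bp bins up to 5 kb beyond it (x axis), by class of the pair and replicate. Pairs with 1 marked gene are read from that gene towards its partner, and the other classes from both sides, which makes their curves symmetrical. The curve of pairs with 1 marked gene declines through the overlap, from 74.1% before it to 54.9% in its last bin in replicate 2.

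Where the own part of the partner held no peak in either replicate (42 pairs, a subset made after seeing the data), the overlap was covered less often. It held a peak in 16 of the 42 pairs in replicate 1 and in 26 in replicate 2, with means of 10.6% and 33.1%, against 89 and 120 of the other 137 pairs and means of 37.5% and 71.2%. The summed overlap of the 42 pairs was covered to 13.8% and 37.7%. None of the 42 overlaps could be wholly covered with the peak running into the partner, by how they were picked.

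Summed over bases, shared bases exonic in both genes were covered more than those intronic in both. Overlaps taken pair by pair gave no single direction, since it depended on the measure. In the 179 pairs, bases exonic in both genes were covered to 35.4% in replicate 1 and 63.1% in replicate 2, bases exonic in the marked gene alone to 28.2% and 60.3%, bases exonic in the partner alone to 29.8% and 69.0%, and bases intronic in both to 17.7% and 38.8%. Taken by pair, the 83 overlaps wholly exonic in both genes had a mean of 25.7% and 56.6% and a peak in 34.9% and 68.7% of pairs, against 35.9% and 67.1% and a peak in 79.2% and 92.7% of the other 96. The medians were 0% and 86.6% for the wholly exonic overlaps, against 34.0% and 76.9% for the others. Fully covered were 15 and 39 of the 83, against 3 and 20 of the 96. The other 96 also hold exonic bases, so this is not a contrast with intronic bases. The wholly exonic overlaps were shorter, with a median of 144 bp against 2554 bp. The part of overlap length in these differences was not tested. In pairs with neither gene marked 14.0% and 38.1% of bases exonic in both genes were covered and 6.34% and 18.6% of bases intronic in both. The authors' peak enrichment, a ratio over background, is 1 value per peak. A peak running from an own part into the overlap can thus count on both sides, which favours like values. A single peak ran across the overlap into both genes in 18 of the 179 pairs in replicate 1 and in 59 in replicate 2. In 146 pairs with 1 marked gene and a peak in the overlap in replicate 2, the median enrichment was 4.51 in the overlap. It was 4.71 in the more covered own part. In replicate 1 the medians over 105 pairs were 3.25 and 3.39.

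The overlap tracked the less covered gene of the pair at least as closely as the more covered one. Across 829 pairs its covered percent had a Spearman correlation of 0.449 in replicate 1 and 0.634 in replicate 2 with the lower own part, and of 0.448 and 0.543 with the higher own part. These are across pairs within 1 library, and the values share its peaks. The covered percent of the overlap in replicate 1 and replicate 2 had a correlation of 0.574 over 873 pairs.

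Past the annotated end of a gene in such a pair lies the body of its partner, which filled the whole 5 kb window at the median. Coverage there therefore moves with the class by construction. The 5 kb past marked genes was covered to a mean of 36.9% in replicate 1 and 66.1% in replicate 2 where the partner was marked (26 ends), and to 6.48% and 26.4% where it was unmarked (179 ends). The comparison that the class does not fix is with 545 marked genes that had no coding gene within 10 kb past the end, where the mean was 3.52% and 12.0%. Convergent pairs separated by at most 5 kb with 1 marked gene had 6.32% and 24.7% (279 ends). Values past the end of a marked gene were thus alike in overlapping and in separated pairs, and higher in both than at ends with no gene nearby. In 107 of the 179 pairs in replicate 1 and in 52 in replicate 2 the 5 kb past the marked gene held no peak, against 393 and 227 of the 545 genes alone.

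Just before the annotated end the pairs with an unmarked partner and the genes with no neighbour had like values. The end base itself lay under a peak at 20.1% of the 179 ends in replicate 1 and at 53.1% in replicate 2, against 20.9% and 47.3% of the 545 ends with no gene nearby. In the last 500 bp before the end the means were 28.0% and 56.9% in the pairs, against 27.4% and 56.3%. In the bin from 500 to 1000 bp past the end they were 10.7% and 41.8%, against 7.56% and 28.5%, and in the bin from 4500 to 5000 bp 1.59% and 15.9%, against 0.524% and 2.36%. The unmarked partners with some coverage contribute to these bins, and their part in the difference was not tested.

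**Figure D5:**
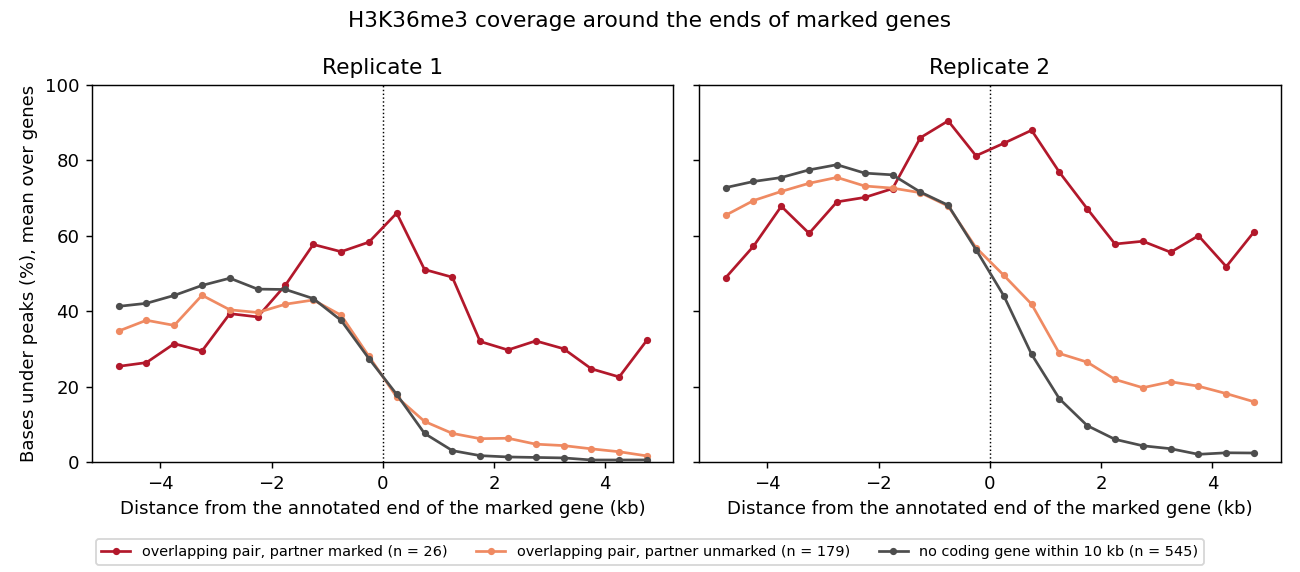
Mean percent of bases under peaks (y axis) in 500 bp bins from 5 kb before to 5 kb past the annotated end of marked genes (x axis, kb), for overlapping pairs with a marked partner, overlapping pairs with an unmarked partner and genes with no coding gene within 10 kb. The orange and grey curves run together in the last 1 kb before the end at 0 kb and separate past it, to 15.9% and 2.36% in the last bin of replicate 2.

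Single pairs spread over the whole range past the marked end. Bud31, a splicing factor, had 58.5% of the 5 kb past its end covered in replicate 1 and 92.3% in replicate 2, and its partner Ptcd1 missed the call with 19.3% of its own part covered in replicate 1 and 63.6% in replicate 2. Pcbp2, a poly(C)-binding protein, had 68.1% and 79.2% past its end, in the body of the kinase gene Map3k12, whose own part was at 19.2% and 22.5%. Sdcbp, which encodes syntenin, had 56.2% and 81.1% past its end in Nsmaf, and Zbtb17, a zinc finger transcription factor, had 41.7% and 95.1% past its end in Spen. The own part of Nsmaf was at 15.8% and 47.4% and that of Spen at 19.6% and 43.8%, so all these partners missed the call through replicate 1 alone. At the other end Adar, an enzyme of RNA editing and an interferon-response gene, had none in either replicate past its end, in Chrnb2, a gene of neuronal acetylcholine receptors, whose own part was at 0% in both. Yet 33.9% and 71.2% of their 7252 shared bases (chr3:89746195-89753446) was covered. The kinase gene Taok1 likewise had no peak past its end in either replicate, in Abhd15, and 15.8% and 26.8% of their 9446 shared bases was covered.

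Counting the shared bases as part of the gene changes which genes carry the mark. By the whole body 240 of the 1677 pair genes passed 20% in both replicates, against 206 by the own part. Over all 20780 coding genes, with no minimum own part, 8.03% passed by the whole body. Of the 1677 pair genes, 49 passed by the whole body only and 15 by the own part only. Over all 19536 coding genes with an own part of at least 500 bp these counts were 66 and 38. The 2 calls can differ only where another coding gene overlaps, so pair genes are frequent in these counts by construction. Pairs of the gene lists show the size of this. Wdr48 was covered over 31.7% of its body in replicate 1 and 55.7% in replicate 2, with no peak in its own part in either. It shares 24972 bp (chr9:119901616-119926587) with Cx3cr1, the fractalkine receptor of the macrophage list, whose own part held no peak in either replicate. This overlap is 34.8% exonic in Wdr48 but only 0.048% exonic in Cx3cr1. A coding gene outside the pair lies over a body, and a gene of the pair belongs to 2 pairs. Of these shared bases 40.3% and 70.7% was covered, so the assignment of this signal to either gene cannot be made from the peaks. Cpsf7, of mRNA 3′ end processing, was at 0% of its own part in replicate 1 and 44.3% in replicate 2 and its partner Tmem216 at 0% in both, while 34.1% and 82.0% of their 13789 shared bases was covered. Ccer2 was at 0% of its own part in both replicates and at 23.8% and 21.0% of its body. Its 718 shared bases with Nfkbib, an inhibitor of NF-κB, were covered to 92.5% and 81.9%. In the pairs of Cpsf7 and of Ccer2, too, a coding gene outside the pair lay over a body. An own part leaves out the 3′ end of the gene, where the mark is usually strongest, so in a long overlap it holds mainly the start of the gene.

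The most covered overlaps of at least 200 bp belonged to pairs with 1 marked gene and to pairs with none. Dvl2, of Wnt signalling, and Acadvl, of fatty acid oxidation, share 2119 bp that was wholly covered in both replicates, while the own part of Acadvl was at 9.003% and 43.9%. Phkg2, a phosphorylase kinase subunit, and Ccdc189 share 925 bp that was wholly covered in both, with own parts at 6.81% and 33.3% and at 8.42% and 16.5%, so that neither was marked. Nsun5 and the nuclear pore gene Pom121 (665 bp), Nepro and Gtpbp8 (517 bp), and Zswim1 and Spata25 (483 bp) were likewise wholly covered in both replicates. Of these genes, Pom121, with 38.4% and 76.7% of its own part covered, and Spata25, with 35.3% and 81.4%, were marked. The longest overlaps were mostly bare. Pigk and St6galnac5 share 163328 bp, covered to 0.31% and 0.972%, and Oprm1, the mu opioid receptor, and Ipcef1 share 152403 bp with no peak in either replicate. Rabgap1 and Strbp differed from these, with 10.5% and 39.5% of 83227 bp covered. In 159 of the 873 pairs neither gene held any peak in either replicate, among them the oocyte homeobox genes Obox1 and Obox3 and the pair of Lyrm1 and the dynein gene Dnah3.

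Some members of the gene lists for macrophage functions were in these pairs. Of the lysosome list, 6 of 19 genes with a record were in a pair. Of the 6, 5 were marked and 2 of their 6 partners were, beside 12.4% of all genes in the classed pairs. Over the whole lysosome list 15 of 19 genes were marked. Lamp1, a lysosomal membrane protein, was at 23.3% and 49.3% of its own part and Grtp1 at 0.384% and 5.72%, with 3317 shared bases covered to 69.8% and 100%. Ctsb, a cathepsin, was at 40.1% and 47.0%, its partner Fdft1, of cholesterol synthesis, at 1.62% and 19.9%, and their 774 shared bases held no peak. Grn, which encodes progranulin, was at 41.6% and 57.6%, Fam171a2 at 0% in both, and their 68 shared bases held no peak. Ctsz, a cathepsin, and Nelfcd, of polymerase pausing, share 10 bp that lay under a peak in both replicates.

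The remaining lists held few members in pairs. Both members of the interferon list, Irf7 and Adar, were marked. Of the NF-κB and Toll list 2 of 3 were marked. Nfkb2 was at 42.0% and 57.6% and its partner Psd at 0% and 0.386%, with 299 shared bases covered to 87.6% and 100%. Nfkbib was the other, and the kinase gene Irak4 missed the call with 19.7% and 44.7% beside its marked partner Twf1. Of the macrophage list 1 of 2 was marked. This was Csf1r, the receptor of the macrophage growth factor, at 25.5% and 56.1%. Its partner Hmgxb3 was at 19.6% and 75.6%, and their 873 shared bases, exonic in both genes, were covered to 7.0% and 3.2%. Of 17 splicing genes 1, Ddx17, was in a pair and was marked. None of 4 members of the 3′ end processing list in pairs was marked, although Cpsf1 reached 17.95% and 60.7%. The overlap of Cstf3 with Tcp11l1 was covered to 12.0% and 55.5% and that of Fip1l1 with Lnx1 to 27.5% and 51.3%, with own parts of Cstf3 at 0% and 8.08% and of Fip1l1 at 11.0% and 31.9%. Over the whole lists, 22 of 25 interferon, 7 of 17 NF-κB and Toll and 8 of 18 macrophage genes with an own part were marked. For splicing it was 12 of 16 and for 3′ end processing 6 of 18. Over all coding genes with an own part 8.10% were marked, and the lists were chosen for expressed genes, so these counts say nothing about the pairs as such.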

How the data were processed

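H3K36me3 ChIP-seq peaks were used as deposited by the authors: 1 list per replicate, kept when found in pseudoreplicates, plus pooled and replicated lists, all on mm10 per the labels. Which aligner and peak caller were run is not given in the sources used here. Enrichment, a ratio over background, and −log10 q were used as deposited by the authors, to describe or filter peaks within a list. A deeper library or a stronger immunoprecipitation gives more and longer peaks, so differences in coverage between the replicates are given as values only. Wider or merged peaks raise the covered percent.

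Gene bodies and exons came from GENCODE M21, with 27 records of repeated symbols dropped. Covered percent is the share of bases under the merged peaks of a list. A pair was classed where both own parts had at least 500 bp. Pair members followed from the annotation rule, which uses no peaks. The gene lists and the comparisons were chosen with earlier results of these data known. Pairs were named by rank: 8 with both genes marked and the highest lower gene, 8 with 1 gene marked and the largest difference, 5 with the most covered overlap of at least 200 bp, 4 with the longest overlap, 4 with the longest overlap and no peak, 5 with the largest difference between replicates, 4 each with the highest and lowest coverage past the marked end, and all with a list member. The 5 with the largest replicate difference were all ties at 0% and 100% and are not described singly. Genes named outside the rule are said to be so, or were picked for a sequence or as a border case. Some genes that these rules take are not described here.

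Steps were tested on simulated data. Alternatives were stricter peaks, the authors' combined lists, other thresholds, the whole body, each replicate alone, longer overlaps, a basic gene model, pairs free of other coding genes, a shorter window and other rules for a bridging peak. Tools were samtools 1.23.1, pysam 0.24.0, scipy 1.17.1, pandas 2.3.3, numpy 2.4.6 and matplotlib 3.10.9 under Python 3.11.15.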

Additional observations from a re-analysis of the deposited data

How the results depend on the processing

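No paired analysis was possible because there was only 1 group. Pairs with both genes marked (13) numbered 6 at an enrichment of at least 3, 2 at a −log10 q of at least 5, 165 in the pooled and 150 in the replicated list, 56 when marked from 10%, 0 from 50%, 31 by the whole body and 8 among pairs with no other coding gene over them, and 13 to 153 when a replicate was left out. Pairs with 1 gene marked (179) numbered 118, 31, 360 and 359 for the first 4 of these settings, 279 from 10%, 11 from 50% and 180 to 350 without a replicate. The share of marked partners (12.7%) was 47.8% in the pooled and 45.5% in the replicated list, and 12.6% to 46.6% without a replicate. It was 28.6% when marked from 10%, 0% from 50% and 26.05% by the whole body, moves that stay within the SD of 24.1 between replicates.

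The covered percent of overlaps, summed over bases and averaged over replicates, was 64.5% with both genes marked, 39.3% with 1 and 15.7% with neither. Without a replicate it was 52.7% to 67.1%, 25.2% to 42.3% and 8.47% to 14.3%. With 1 gene marked it was 23.7% when marked from 50%, where no pair had both genes marked and that class gave no value. The 5 kb past marked genes, at 51.5% with a marked partner and 16.4% with an unmarked one, was 36.9% to 57.0% and 6.49% to 12.0% without a replicate. With a marked partner it was 35.97% at a −log10 q of at least 5. With an unmarked partner it was 11.8% when marked from 10%, 10.4% from 50% and 23.5% over 2 kb. The 32 pairs with a bridging peak numbered 9 at a −log10 q of at least 5, 177 in the pooled and 172 in the replicated list. They numbered 13 among overlaps of at least 100 bp and 41 to 142 without a replicate. A looser rule gave 62 pairs. It took a peak over at least 50% of the overlap that ran past it on either side, so the peak need not reach both genes. Without a replicate, and with the pooled or the replicated list, classes and calls come from a single list by construction. Stricter peaks or a higher threshold can only lower the number of marked genes, and a lower threshold can only raise it. The cause of the other shifts was not tested. Of 110 recomputed values, 74 stayed within these limits: a count within 1.5 times, a percent within 1 SD of the replicates. For a percent the limit is set by how far the replicates differ, so staying within it does not show stability. For the share of marked partners the SD of 24.1 is above the main value of 12.7%, so no fall could pass the limit.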

Other observations

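A gap at the shared bases between 2 covered flanks was looked for after Csf1r had been seen. In replicate 2 both 5 kb flanks outside the overlap were covered to at least 50% in 65 pairs, and in 52 of them the overlap was too, while in 7 it was covered to less than 10%. The longest of these 7 overlaps were those of Csf1r and Hmgxb3 (873 bp, at 3.2%), of Vps35l and Knop1 (745 bp, at 5.5%) and of Cox15, of heme synthesis, and Entpd7 (444 bp, at 0%). The other 4 were at 0% over at most 75 bp and included Ccar2 and Bin3, whose 43 shared bases lay under a peak in replicate 1. In replicate 1 only 3 pairs had both flanks at 50%, and none of these had such a gap. The reverse, an overlap with a peak between flanks with none, was seen in 37 of 370 pairs with bare flanks in replicate 1 and in 18 of 207 in replicate 2.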
